A study of Homo sapiens with 10 samples.

Results

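Kinesins are motor proteins that use ATP to move along microtubules or to take microtubules apart at their ends. One set works during cell division, where its members build the spindle, align chromosomes and complete cytokinesis, and several of these genes are transcribed mainly in G2 and M phase. Another set carries vesicles, organelles and protein complexes through the cytoplasm, along axons and into cilia, and some of its members are best known from neurons.

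The kinesin genes were taken as the rows of the count file whose protein-coding GENCODE symbol is KIF followed by digits and an optional letter A to C, which gave 39 genes of 55841 identifiers. Of these, 13 were grouped as mitotic, 15 as transport and 11 as other kinesins by their known roles. RNA sequencing was carried out on 10 libraries of HES9 (as labelled), a line of human embryonic stem cells kept free of feeder cells in mTESR1 medium on matrigel. The general population, which was not sorted, was compared with the HHH subset, sorted for high levels of the surface antigens GCTM-2, CD9 and EPCAM and studied as a candidate self-renewing subset. In batch 1 there were 2 general libraries (replicates 1 and 2) and 2 HHH libraries (replicates 2 and 3), and in batch 2 there were 3 of each (replicates 1 to 3). All libraries came from 1 line, and passage through the sorter and membership of the HHH subset cannot be told apart. Values per library are listed below in replicate order. In bulk RNA, fewer cells of a type and less RNA per cell cannot be told apart.

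Library totals ran from 47.2 to 78.5 M counts, and levels are given as CPM, counts relative to the TMM-scaled library size. The detection floor of 3 counts corresponded to between 0.0460 and 0.0687 CPM and covers counting error only. All 6 pluripotency markers examined were at 1 CPM or above in every group, with a summed level from 2870 to 4110 CPM. Gastrulation markers were low, with a sum of 0.766 to 2.59 CPM over 8 genes. Of 10 neural markers, 8 reached 1 CPM in the general libraries of both batches, 4 in HHH of batch 1 and 5 in HHH of batch 2, and LIX1, at a mean of 0.0114 CPM in HHH of batch 1, was under the floor. The neural sum was 401 to 439 CPM in general and 442 to 478 CPM in HHH in batch 1. In batch 2 it was 402 to 459 CPM in general and 271 to 338 CPM in HHH. Most of it came from TUBB3 (group means of 134 to 214 CPM) and NES (164 to 236 CPM), and the other markers had group means of at most 8.71 CPM. The sum thus follows TUBB3 and NES: in batch 1, 6 of the 10 markers were lower in HHH than in general and 4 higher. Trophoblast and amnion markers summed to at most 10.5 CPM. Of 5 fibroblast markers 4 reached 1 CPM in every group, with sums from 271 to 353 CPM. THY1 was the largest part of these sums, with group means of 138 to 232 CPM, and COL3A1 was near the floor at 0.0114 to 0.0781 CPM. Which cells these marker counts came from was not tested.

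Mitotic genes often carry 2 short elements near their start: the cell cycle homology region, searched here by the letters TTTGAA, and the CCAAT box, to which the NF-Y factor binds. Promoter windows of RefSeq (GRCh38.p14, 250 bases before to 50 bases after a start) were present for 33 of the 39 kinesin genes, some with several starts, and both strands were searched. TTTGAA was found in 9 of 14 mitotic windows (64.3%), 1 of 17 transport windows (KIF5B) and 0 of 11 other windows, beside 15.2% of all 35116 windows and 12.4% of those of protein-coding genes. CCAAT was found in 10 of 14 mitotic, 5 of 17 transport and 4 of 11 other windows, beside 34.6% of all windows. Both elements stood together in 57.1% of mitotic windows and 5.90% of all windows. A match describes the sequence only, and no match of one element overlapped a match of the other in the mitotic windows. In the mitotic windows of KIF20A and KIF22, CCAAT was present and TTTGAA was not.

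Of the mitotic genes with TTTGAA, edgeR called KIF11, KIF18A and KIF23 higher in HHH in batch 2. It did not call KIF4A, KIF15, KIF14, KIF18B, KIF20B or KIF4B there, and in the last 4 of these the match lay after the start. Whether the element bears on the changes was not tested. The 80 bases before the start are shown for the 5 mitotic genes whose TTTGAA match lies in that stretch. Each is written 5′ to 3′ on the gene's own strand, which is the plus strand except for KIF18A, and capitals mark TTTGAA or its complement TTCAAA and CCAAT or its complement ATTGG.
KIF23, chr15:69414269-69414348: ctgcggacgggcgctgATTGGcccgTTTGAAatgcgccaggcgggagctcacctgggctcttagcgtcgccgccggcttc
KIF18A, chr11:28108157-28108236: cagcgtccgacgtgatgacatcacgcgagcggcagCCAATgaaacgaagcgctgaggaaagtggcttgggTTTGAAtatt
KIF11, chr10:92593050-92593129: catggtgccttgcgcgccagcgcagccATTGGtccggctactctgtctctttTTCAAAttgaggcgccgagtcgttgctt
KIF4A, chrX:70290024-70290103: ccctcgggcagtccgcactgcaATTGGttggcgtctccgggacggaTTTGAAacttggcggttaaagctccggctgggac
KIF15, chr3:44761714-44761793: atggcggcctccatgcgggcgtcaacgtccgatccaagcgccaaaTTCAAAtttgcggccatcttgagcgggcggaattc
The match began at position -55 in KIF23, -10 in KIF18A, -28 in KIF11, -34 in KIF4A and -35 in KIF15, where -1 is the base before the start. A CCAAT match stood upstream of it in 4 of the 5, and KIF15 had none. Starts are those of RefSeq: the stretches of KIF23 and KIF11 lie inside the gene span of GENCODE, and that of KIF15 overlaps it.

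Most kinesin genes were expressed in these cells. Of the 39 genes, 29 had a mean of at least 10 CPM over the 10 libraries, 9 had at least 100 CPM, and 6 were under 1 CPM. KIF2B, a spindle depolymerase related to KIF2A and KIF2C, had 0 to 2 counts in each library, at or under the floor, and was the only kinesin gene that did not pass the filter on low counts, so that 38 were tested.

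On the scale of CPM per kilobase of exon, which allows levels of different genes to be set side by side, KIF11 had the highest mean level (32.9 ± 3.88, SD, n = 10), followed by KIF5B at 32.5. KIF11 is the kinesin-5 motor that pushes spindle poles apart, and KIF5B is the kinesin-1 heavy chain found in most cell types. Their order differed by batch. In batch 1 the mean of KIF11 was above that of KIF5B, at 30.9 against 26.1 in general and 29.4 against 24.8 in HHH. In batch 2 it was below, at 31.4 against 34.8 in general and 38.2 against 39.4 in HHH. Over all 10 libraries their ranges overlapped, so the order of this pair is not settled. KIF20A (27.8) and KIF2C (24.5), which act in cytokinesis and at centromeres, came next in mean level, then KIF1A (22.5), a carrier of synaptic vesicle precursors, with KIF20B (18.4), KIF23 (17.3) and KIF22 (15.8) after it. KIF1C (13.2) was the third transport gene by level. The lowest levels apart from KIF2B belonged to KIF26B (0.0401), KIF25 (0.0601) and KIF6 (0.0621). The length of all annotated exons enters this scale and understates genes with long rare exons. By the authors' own RPKM, KIF11 also had the highest mean, and KIF5C ranked 13 against 24 here.

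**Figure D1:**
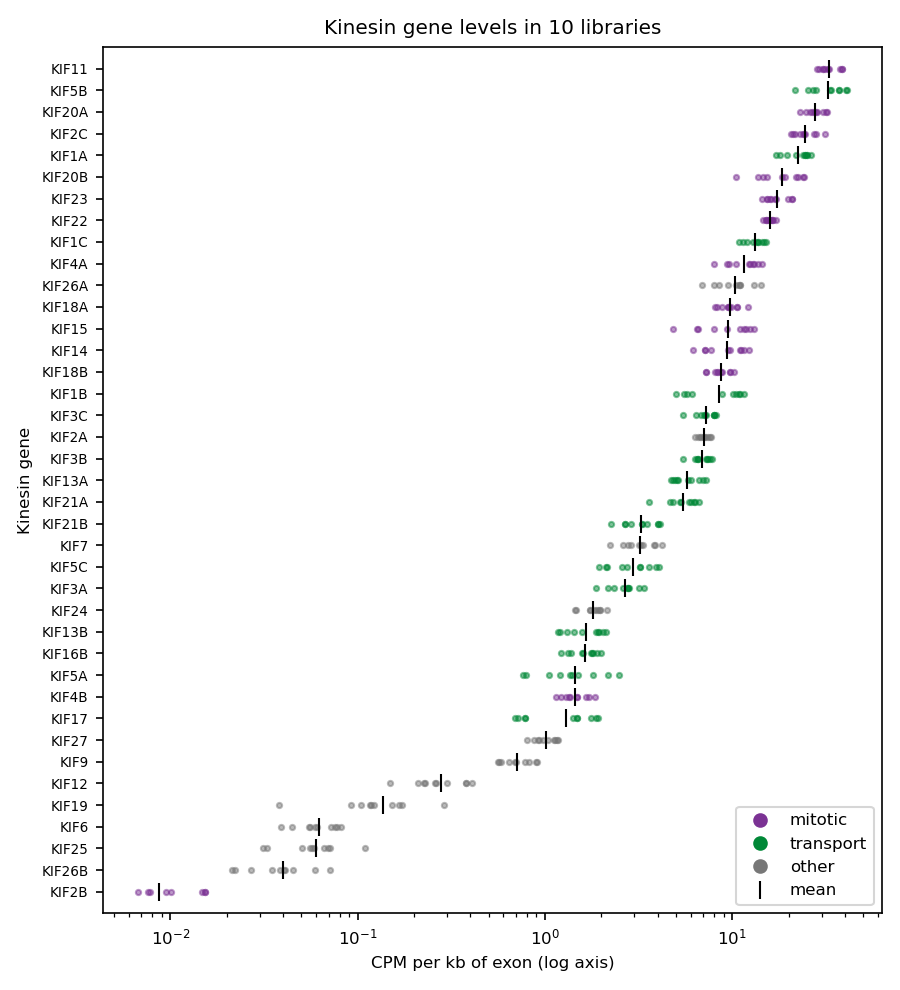
Level of each kinesin gene in CPM per kb of exon (horizontal log axis), with a point for each of the 10 libraries, coloured by class, and a tick for the mean. Mitotic genes fill 6 of the 8 highest places, from KIF11 at 32.9 to KIF22 at 15.8, while KIF2B lies lowest at 0.00871, where libraries at 0 counts cannot be drawn on a log axis.

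KIF4B is an intronless copy of KIF4A, the chromokinesin that acts on the midzone, and its counts were 9.13 to 13.6% of those of KIF4A in every library. Reads of the near-identical pair may have been split between them in counting, so values of both are uncertain. KIF23 shared 3.51% of its exonic length with an antisense gene, and whether counting used the strand is not given in the sources used here.

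Relative to the general population, with both batches in one fit and batch as a term, 3 of 38 kinesin genes were called in HHH at an adjusted p under 0.05 (edgeR quasi-likelihood test), which is 7.89% beside 5.83% of all 23552 tested genes. KIF23 was higher, as were 1.94% of all genes, and KIF5A and KIF19 were lower, as were 3.89%. The share of called kinesins was thus near that of all genes. With a fold over 1.5 also required, as 2.98% of all genes met, KIF19 was the only call. The labels do not say whether replicates were separate cultures, so p-values measure the spread between these libraries, which may be technical. With replicate numbers as a block, KIF5C was called as well (log2 fold change -0.35, adjusted p = 0.0282), for 4 genes in all, beside 6.95% of all genes.

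The classes lay on opposite sides of 0 in the same fit. Of 12 mitotic kinesins tested 10 had a log2 fold change above 0, with a median of 0.112, while 13 of 15 transport kinesins were below 0, with a median of -0.098. The 11 other kinesins had a median of -0.118. Over all tested genes 53.0% were above 0 and the median was 0.016. On the deposited log2 values, which shifted the median of all genes to -0.123, the mitotic median became -0.029 and the transport median -0.242, so the mitotic sign turned while both stayed on the same sides of that shift. Single libraries moved these medians: the transport median was -0.051 (11 of 15 below 0) without HHH replicate 3 of batch 2 and -0.151 without HHH replicate 3 of batch 1, and with the replicate block it was -0.174. The mitotic median was 0.176 without HHH replicate 2 of batch 1.

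KIF23 (MKLP1) is the motor subunit of centralspindlin, the complex that bundles midzone microtubules before abscission. Its gene lies at chr15:69414246-69448427 (GRCh38, plus strand). In batch 1 it was at 94.5 and 106 CPM in general and 112 and 111 CPM in HHH. In batch 2 it was at 104, 101 and 101 CPM in general and 131, 137 and 137 CPM in HHH. HHH was above general without overlap in both batches. The pooled log2 fold change was 0.31 (SE 0.070, adjusted p = 0.0179, edgeR), from 0.15 (SE 0.11, adjusted p = 0.622) in batch 1 and 0.40 (SE 0.077, adjusted p = 0.0057) in batch 2. The pooled call was lost when any of 5 libraries, all of batch 2, was left out, with an adjusted p of at most 0.0693.

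KIF5A, at chr12:57546026-57586633 on the plus strand, encodes the neuronal kinesin-1 heavy chain. In batch 1 it was at 12.8 and 14.7 CPM in general and 9.33 and 9.71 CPM in HHH. In batch 2 it was at 26.4, 22.0 and 30.3 CPM in general and 18.3, 16.7 and 17.0 CPM in HHH. The groups were apart in both batches, and the change had a similar size in each. The pooled log2 fold change was -0.57 (SE 0.090, adjusted p = 0.00154), with -0.54 (adjusted p = 0.203) in batch 1 and -0.60 (adjusted p = 0.00406) in batch 2. The gene stayed called in each of the 10 fits that left out a library, at an adjusted p of at most 0.00885. The neural marker list had 9 of 10 genes below 0 in the same comparison, of which 4 were called lower (LHX5, LIX1, STMN2 and SOX1), beside 3.89% of all genes. LHX5 and LIX1 were on that list after an earlier account of these data had named them, so their calls are no independent sign. Single markers of other lists were called in the same comparison too, with KRT7 at -0.76 (adjusted p = 0.00149), COL1A1 at -0.94 (adjusted p = 0.00334) and THY1 at 0.61 (adjusted p = 0.000452). Of the 6 pluripotency markers, NANOG was called higher at 0.44 (adjusted p = 0.00572, edgeR) and SOX2 lower at -0.26 (adjusted p = 0.0375, edgeR). The part of these markers in the KIF5A value was not tested.

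KIF19, a kinesin-8 that shortens ciliary microtubules, was scarce, with 10 to 97 counts per library. It was at 0.690 and 0.973 CPM in general and 0.214 and 0.664 CPM in HHH in batch 1. The batch 2 values were 0.938, 0.860 and 1.62 CPM in general and 0.584, 0.519 and 0.654 CPM in HHH. Groups did not overlap within a batch, although HHH replicate 3 of batch 1 came close to general replicate 1. The pooled log2 fold change was -0.95 (SE 0.26, adjusted p = 0.0482), and the call was kept in 1 of the 10 fits without a library, with adjusted p from 0.0130 to 0.148.

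In batch 1 alone no kinesin gene of 38 was called, beside 0.573% of all genes (0.291% higher and 0.282% lower). DESeq2 called 0 as well. Of the 38, 4 had an unadjusted p under 0.05 (edgeR), as had 2974 of all 23720 genes. Mitotic kinesins were above 0 in 4 of 12 cases with a median of -0.053, and transport kinesins in 7 of 15 cases with a median of -0.002, beside 50.8% of all genes above 0 and a median of 0.005. Both medians depended on which HHH library was present: without replicate 3 they were -0.186 and -0.170 (12 of 15 transport genes below 0), and without replicate 2 they were 0.004 and 0.10. HHH and general did not overlap for 3 mitotic genes with HHH higher and 4 with HHH lower, where 23.0% and 20.7% of all genes did the same.

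In batch 2 alone 12 of 38 kinesin genes were called (31.6%), beside 13.2% of all genes. All 3 higher genes were mitotic (KIF11, KIF18A and KIF23), where 5.13% of all genes were called higher. The 9 lower genes were 5 transport kinesins (KIF3C, KIF5A, KIF5C, KIF13A and KIF21B) and 4 others (KIF7, KIF12, KIF19 and KIF26A), where 8.05% of all genes were called lower. All 12 mitotic genes had a log2 fold change above 0, with a median of 0.219 and a range of 0.01 to 0.40, and 14 of 15 transport genes were below 0, with a median of -0.184. Over all genes 49.0% were above 0 and the median was -0.008. HHH lay wholly above general for 6 of 12 mitotic genes, beside 17.7% of all genes, and wholly below for 7 of 15 transport genes, beside 18.4%. A fold over 1.5 as well, met by 4.90% of all genes, left 3 of the 12 (KIF5A, KIF12 and KIF19). With replicate numbers as a block 13 were called, with KIF2C added, beside 15.5% of all genes. A filter of at least 1 CPM in 3 libraries, which leaves out scarce genes, gave 11 calls of 34 kinesins, without KIF19, beside 17.1% of all genes. DESeq2 called 14, with KIF2C, KIF20A and KIF20B added and KIF12 lost, beside 17.5% of the genes with an adjusted p. HHH replicate 3 was the lowest HHH library of this batch for KIF1A, KIF1C, KIF3C, KIF5C, KIF13A and KIF21B, and without it the transport median was -0.102, with 13 of 15 genes below 0.

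**Figure D2:**
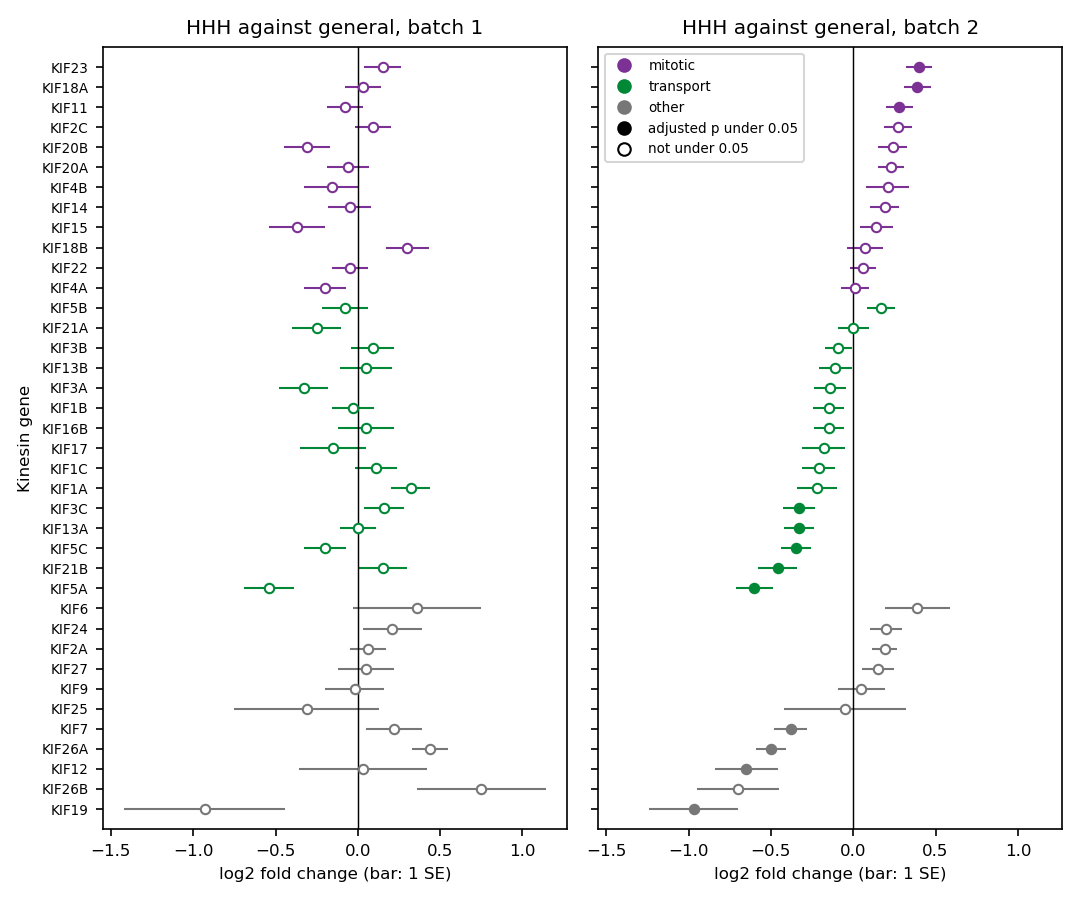
log2 fold change of HHH against general (horizontal axis, bar 1 SE) for the 38 tested kinesin genes, fitted in batch 1 (left) and batch 2 (right) and coloured by class, with filled points for an adjusted p under 0.05. In batch 2 all 12 mitotic genes lie above 0 and 14 of 15 transport genes below, whereas in batch 1 no point is filled and the classes mix around 0.

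Among the mitotic genes, KIF18A, a kinesin-8 that dampens chromosome movements at the metaphase plate, was at 42.8 and 42.9 CPM in general and 44.7 and 43.3 CPM in HHH in batch 1. Batch 2 gave 39.7, 36.7 and 37.3 CPM in general and 48.1, 47.7 and 54.6 CPM in HHH. The batch 2 groups were well apart, while those of batch 1 differed by little. The log2 fold change in batch 2 was 0.39 (SE 0.083, adjusted p = 0.00913), and it stayed called in all 6 fits that left out a library of that batch, as KIF23 did.

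KIF11 was at 162 and 167 CPM in general and 150 and 163 CPM in HHH in batch 1, with overlap. In the second batch it was at 173, 174 and 154 CPM in general and 205, 205 and 199 CPM in HHH, with all HHH libraries higher. The log2 fold change in batch 2 was 0.28 (SE 0.084, adjusted p = 0.0466). This call was kept in 2 of 6 fits without a library, where adjusted p ran from 0.0337 to 0.182.

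KIF20A (MKLP2), which brings the chromosomal passenger complex to the midzone, was at 109 and 95.4 CPM in general and 88.6 and 108 CPM in HHH in batch 1. It was at 105, 100 and 103 CPM in general and 117, 122 and 124 CPM in HHH in batch 2. KIF2C (MCAK) was at 78.9 and 74.8 CPM in general and 77.3 and 86.9 CPM in HHH in batch 1, and at 87.9, 88.7 and 84.0 CPM against 102, 114 and 99.4 CPM in batch 2. Both overlapped in batch 1 and were apart in batch 2, where adjusted p in edgeR was 0.0657 for KIF20A (log2 fold change 0.23) and 0.052 for KIF2C (0.27), neither under 0.05. DESeq2 called both. The other 7 mitotic genes, none of them called by edgeR, ran from 0.24 for KIF20B (adjusted p = 0.0901) through 0.21 for KIF4B and 0.19 for KIF14 to 0.06 for KIF22, a chromokinesin, and 0.01 for KIF4A.

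**Figure D3:**
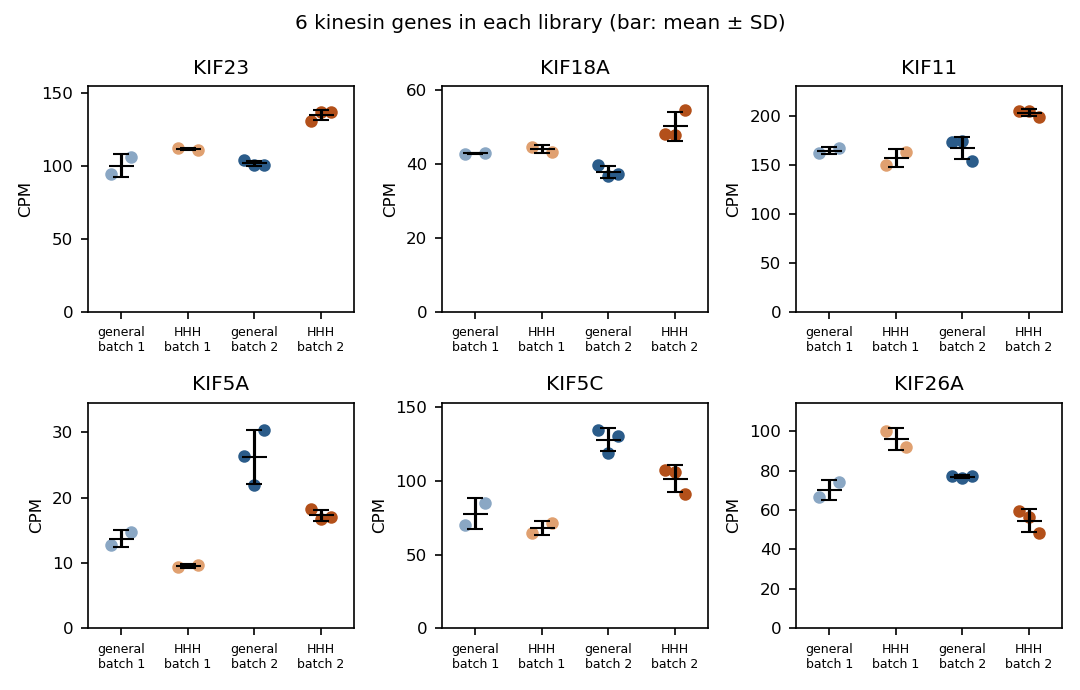
CPM (vertical axes from 0) of 6 kinesin genes, with a point for each library and bars for the mean and SD of each population in each batch. KIF23, KIF18A and KIF11 are higher in every HHH library of batch 2, KIF5A and KIF5C are lower there, and KIF26A lies above general in HHH of batch 1 and below it in batch 2.

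Among the transport genes, KIF5C, the second neuronal kinesin-1 heavy chain, was at 70.2 and 84.9 CPM in general and 64.4 and 71.4 CPM in HHH in batch 1. The batch 2 libraries gave 134, 119 and 130 CPM in general and 107, 106 and 90.7 CPM in HHH. It was lower in every HHH library of batch 2 and overlapped in batch 1. The log2 fold change in batch 2 was -0.35 (SE 0.091, adjusted p = 0.0273), and 3 of 6 fits without a library kept the call. The third kinesin-1 gene, KIF5B, was not lower: it was at 149 and 158 CPM against 126 and 164 CPM in HHH in batch 1, and at 218, 198 and 196 CPM against 239, 236 and 219 CPM in batch 2, with a log2 fold change there of 0.17 (adjusted p = 0.197). All HHH libraries of batch 2 were above the general ones for KIF5B, the opposite order to KIF5A and KIF5C.

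KIF13A carries endosomes and melanosome cargo. It was at 52.7 and 56.8 CPM in general and 53.4 and 56.2 CPM in HHH in batch 1, and at 80.7, 77.8 and 74.0 CPM against 66.7, 64.9 and 54.8 CPM in batch 2, where the log2 fold change was -0.33 (SE 0.090, adjusted p = 0.0331). KIF3C, a kinesin-2 subunit, was at 41.2 and 45.1 CPM against 46.3 and 50.8 CPM in batch 1, and at 52.2, 51.4 and 51.4 CPM against 43.3, 45.8 and 34.8 CPM in batch 2, with a log2 change of -0.33 (SE 0.099, adjusted p = 0.0451). For KIF3C the HHH libraries were above general in batch 1 and below in batch 2. The calls of both genes in batch 2 were kept in 1 of 6 fits without a library.

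KIF21B, a kinesin-4 known from neurons and lymphocytes, was at 34.8 and 32.6 CPM in general and 32.7 and 42.4 CPM in HHH in batch 1. Levels in batch 2 were 48.5, 50.2 and 48.5 CPM in general and 40.1, 40.2 and 27.4 CPM in HHH, with a log2 change of -0.46 (SE 0.12, adjusted p = 0.0302). HHH replicate 3 was the lowest of that batch for this gene. Of the 6 fits without a library, 3 kept the call.

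The high-level transport genes KIF1A and KIF1C were not called in any of these fits. KIF1A was at 320 and 350 CPM in general and 391 and 449 CPM in HHH in batch 1, and at 446, 468 and 435 CPM against 424, 435 and 307 CPM in batch 2, where the highest HHH and the lowest general library were both at 435 CPM. KIF1C, a motor of dense core vesicles and integrin cargo, was at 98.2 and 111 CPM against 103 and 123 CPM in batch 1, and at 130, 126 and 118 CPM against 118, 115 and 92.9 CPM in batch 2. The log2 fold changes in batch 2 were -0.22 (SE 0.12) for KIF1A and -0.21 (SE 0.099) for KIF1C, with adjusted p of 0.256 and 0.182.

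Of the kinesins outside both classes, KIF7 regulates GLI factors at the ciliary tip and acts in Hedgehog signalling. It was at 12.1 and 15.7 CPM in general and 15.1 and 17.3 CPM in HHH in batch 1, and at 20.7, 21.1 and 22.9 CPM against 17.7, 18.1 and 14.2 CPM in batch 2, where the log2 fold change was -0.38 (SE 0.10, adjusted p = 0.0301). The gene shared 10.8% of its exonic length with TICRR. KIF12 was at 0.644 and 0.704 CPM against 0.922 and 0.458 CPM in batch 1, and at 1.16, 1.16 and 1.25 CPM against 0.807, 0.692 and 0.796 CPM in batch 2, with a log2 change of -0.65 (SE 0.19, adjusted p = 0.0386). Both were lower in all HHH libraries of batch 2 and overlapped in batch 1. KIF12 was not called in any of the 6 fits without a library, and KIF7 was in 3. For KIF19 the batch 2 log2 fold change was -0.97 (adjusted p = 0.0313), and 2 of the 6 fits kept the call, with log2 fold changes from -1.14 to -0.62.

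KIF26A, a kinesin that binds microtubules without known motor activity, lies at chr14:104136454-104180894 on the plus strand. It was at 66.8 and 74.0 CPM in general and 99.9 and 92.1 CPM in HHH in batch 1. In batch 2 the values were 77.3, 76.3 and 77.5 CPM in general and 59.5, 56.3 and 48.3 CPM in HHH. Groups were apart in both batches, in opposite directions. The log2 fold change was 0.44 (SE 0.11, adjusted p = 0.162) in batch 1 and -0.50 (SE 0.089, adjusted p = 0.00333) in batch 2.

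The test of batch by population interaction called 1 of 38 kinesin genes, KIF26A, beside 0.777% of all genes (0.0552% higher and 0.722% lower in batch 2). Its change was lower in batch 2 than in batch 1 by a log2 difference of -0.94 (SE 0.14, adjusted p = 0.0106). Without general replicate 1 of batch 1 the call was lost, at an adjusted p of 0.0748. By edgeR no mitotic or transport gene was called, while DESeq2 also called KIF20B, beside 5.02% of the genes with an adjusted p. In edgeR 11 of 12 mitotic genes had an interaction above 0, with a median of 0.269. Of 15 transport genes 12 had one below 0 (median -0.163), where 49.5% of all genes were above 0. With the replicate block the mitotic median was 0.369, and the transport median was -0.002 with 8 of 15 genes below 0 (0.021 and 6 of 15 with the GC trend removed as well). The lower transport changes in batch 2 than in batch 1 were thus not kept in the block fit. In batch 1 only replicate 2 was present in both populations, so that side of the block fit rests on 1 pair. Without HHH replicate 3 of batch 1, and with no block, the transport median was -0.035. What moved it was not tested.

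The summed level of the 13 mitotic genes was divided by that of the 15 transport genes in each library, on the scale of CPM per kilobase. In batch 1 the ratio was 1.77 and 1.66 in general and 1.65 and 1.57 in HHH. In batch 2 it was 1.40, 1.39 and 1.40 in general and 1.64, 1.70 and 1.94 in HHH. HHH was wholly above general in batch 2 and just below it in batch 1. The mean ratio of HHH was 1.26 times that of general in batch 2 and 0.940 times in batch 1. In batch 2 the mitotic sum was 185 ± 6.93 in general and 218 ± 3.79 in HHH (SD, n = 3), and the transport sum was 133 ± 4.36 and 124 ± 11.6. In batch 1 the mitotic sums were 167 and 163 and the transport sums 97.3 and 102, as means of 2 libraries. The ratio of median levels instead of sums was higher in HHH in both batches, by 1.19 times in batch 1 and 1.12 times in batch 2, so the direction in batch 1 depends on how genes are weighted.

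**Figure D4:**
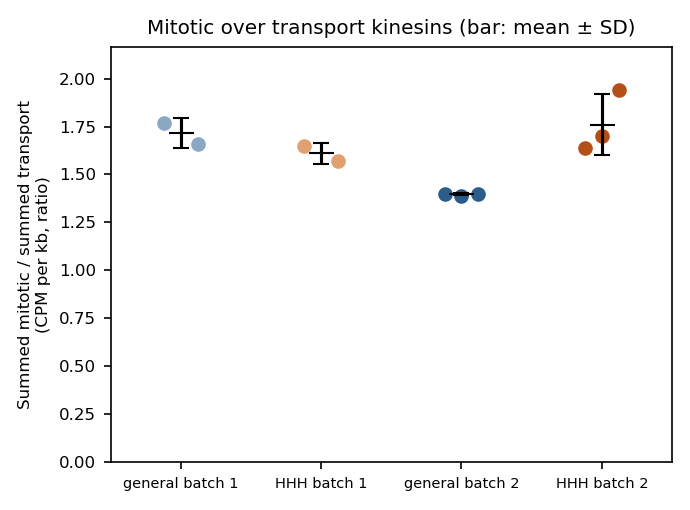
Summed level of 13 mitotic kinesins over that of 15 transport kinesins (CPM per kb, vertical axis from 0) in each library, with bars for the mean and SD. The HHH libraries of batch 2 lie at 1.64 to 1.94, above the general libraries at 1.39 to 1.40, and HHH of batch 1 at 1.57 and 1.65 lies just below general.

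GC content moved with these changes. Over the 38 kinesins, the batch 2 log2 fold change had a Pearson correlation of -0.65 with exonic GC content (-0.29 over 22564 genes), and in batch 1 it was 0.24 (0.15 over 22283 genes). These are descriptions across genes that share the same libraries. Median GC was 45.6% for mitotic, 48.0% for transport and 51.7% for other kinesins, and KIF26A had the highest GC of all kinesins, 68.6%. The fitted log2 level of genes of 60% GC minus that of genes of 40% GC was set against its mean over all libraries. Relative to that mean it was 0.08, 0.11 and 0.24 in general of batch 2 and -0.09, -0.03 and -0.25 in HHH of batch 2.

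With that trend removed from each library, 7 kinesins were called in batch 2, beside 12% of all genes. KIF2C, KIF18A, KIF20A and KIF23 were higher and KIF5A, KIF5C and KIF13A were lower. Of the calls without that step, 7 were lost: KIF11 (log2 fold change 0.20), KIF3C (-0.20), KIF7 (-0.12), KIF12 (-0.39), KIF19 (-0.70), KIF21B (-0.27) and KIF26A (-0.18). With the replicate block added, 9 were called, beside 17.7% of all genes, and KIF19 and KIF21B were among them. All 12 mitotic genes remained above 0 (median 0.206) and 13 of 15 transport genes below (median -0.119), beside a median of 0.032 over all genes. The mitotic over transport ratio of HHH was then 1.21 times that of general in batch 2 without overlap, and 0.958 times in batch 1 with overlap. The interaction of KIF26A was then a log2 difference of -0.34 (adjusted p = 0.358) and was not called.

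**Figure D5:**
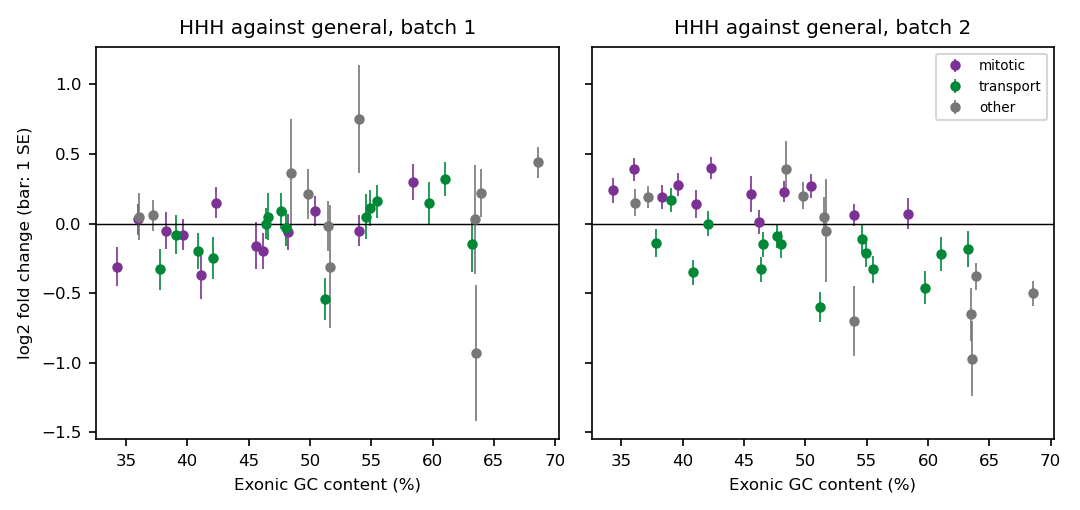
log2 fold change of HHH against general (vertical axis, bar 1 SE) against exonic GC content in percent for the 38 tested kinesin genes in batch 1 (left) and batch 2 (right), coloured by class. In batch 2 the changes decline with GC (Pearson -0.65, n = 38), with KIF26A at 68.6% GC and -0.50.

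Kinesin levels also differed between batches, with the population as a term. Of 38 genes 19 were called, beside 47.9% of all genes. In batch 2, 18 of them were higher and 1, KIF9, was lower (log2 fold change -0.45), beside 24.0% of all genes higher and 23.9% lower. All 15 transport genes were above 0, with a median of 0.384 and 11 called, and so were the 12 mitotic genes, with a median of 0.231 and 5 called, where 50.3% of all genes were above 0 and their median was 0.004. The largest difference was that of KIF17, a dendritic and ciliary kinesin-2, at 1.15 (SE 0.11, adjusted p = 2.59e-06), then KIF1B and KIF5A at 0.90 each and KIF15 at 0.84. KIF17 was at 3.11 to 3.50 CPM over the 4 libraries of batch 1 and at 6.28 to 8.57 CPM over the 6 of batch 2.

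Genes that work with the kinesins were counted in the same pooled fit. Of 12 mitotic partners (midzone, passenger complex and mitotic kinase genes), all were above 0, with a median of 0.212, beside 53.0% of all genes above 0, and 3 were called higher, beside 1.94% of all genes: the kinases AURKA (0.27, adjusted p = 0.0341) and AURKB (0.28, adjusted p = 0.0349) and the kinetochore factor KNSTRN (0.26, adjusted p = 0.0473). PLK1 missed the threshold (0.32, adjusted p = 0.0584). In batch 2 alone 5 of the 12 were called higher, beside 5.13% of all genes, among them RACGAP1, the partner of KIF23 in centralspindlin, at 0.38 (adjusted p = 0.0118), which was named after its value had been seen. In batch 1 alone 10 of the 12 were above 0, with a median of 0.135, beside 50.8% of all genes above 0. PLK1 was called higher there, at 0.63 (adjusted p = 0.0481, edgeR), beside 0.291% of all genes. In batch 2 PLK1 was at 0.11 (adjusted p = 0.401, edgeR).

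Of 4 motors outside the symbol rule, KIFC3, a minus-end motor of cell junctions and the Golgi, was called higher at 0.73 (SE 0.13, adjusted p = 0.0045), beside 1.94% of all genes. The mitotic motors CENPE (0.12, adjusted p = 0.683) and KIFC1 (0.19, adjusted p = 0.0998) and the neuronal KIFC2 (-0.26, adjusted p = 0.157) were not called in the pooled fit, and KIFC2 was called lower in batch 2 alone (-0.46, adjusted p = 0.00902). None of 14 kinesin light chains and cargo adaptors was called in the pooled fit, beside 5.83% of all genes. Of the 14, 3 had an unadjusted p under 0.05 (edgeR), as had 4923 of all 23552 genes. There 11 of the 14 were below 0 with a median of -0.092, beside 11071 of all genes below 0. In batch 2 alone 3 were called lower, beside 8.05% of all genes, of which MAPK8IP1, the JIP1 scaffold for kinesin-1, was at -0.52 (adjusted p = 0.00344). In batch 1 alone 10 of the 14 were above 0, with a median of 0.097, beside 50.8% of all genes above 0. None was called, and 0 had an unadjusted p under 0.05 (edgeR), beside 2974 of all 23720 genes.

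Of 17 intraflagellar transport genes, whose trains are pulled by KIF3A and KIF3B, IFT46 was called higher (0.45, adjusted p = 0.0342). This single call was 5.88% of the list, beside 5.83% of all genes called, and the median was 0.030. Batch 2 alone had IFT46 higher and IFT140 (-0.41, adjusted p = 0.0191) and IFT122 (-0.31, adjusted p = 0.0447) lower. These 3 calls were 17.6% of the list, beside 13.2% of all genes called. None of 13 cytoplasmic dynein and dynactin genes, which move cargo the other way, was called in the pooled fit, and the median was -0.017. Of the 13, 0 had an unadjusted p under 0.05 (edgeR), beside 4923 of all 23552 genes. DYNLL2 was called lower in batch 2 alone (-0.33, adjusted p = 0.032), beside 8.05% of all genes. KIF3A itself was at -0.21 (adjusted p = 0.201) and KIF3B at -0.01 (adjusted p = 0.952). Of 7 Hedgehog pathway genes, GLI1, a target and effector of the pathway, was called lower (-0.57, adjusted p = 0.00331), beside 3.89% of all genes. In batch 2 alone 5 of them were called lower, beside 8.05% of all genes. In batch 1 alone none was called, and 1 had an unadjusted p under 0.05 (edgeR), as had 2974 of all 23720 genes. There 5 of 7 were above 0 with a median of 0.029, beside 50.8% of all genes above 0. The interaction called 2 of the 7, beside 0.777% of all genes: GLI2 (-0.85, adjusted p = 0.0248) and PTCH1 (-0.83, adjusted p = 0.0408), with GLI2 named after its value had been seen.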

How the data were processed

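RNA was measured in 5 general and 5 HHH libraries, grouped by their titles. The kinesin genes and all lists were chosen with earlier results of these data known. The authors deposited raw counts per Ensembl gene. They also deposited log2 values, a score described as TMM-scaled RPKM, whose batch means were equal to within 9.24e-14 over 27641 genes, so that these served only as an alternative. The submitters' processing notes name GRCh37, CASAVA 1.8.2, R 3.2.2 and limma 3.26.9, and the aligner and counting tool are not given in the sources used here. The study's text names the line of its transcriptome analysis WA09, and the series text mentions protein kinase C inhibitors, which no label carries. Neither point was resolved.

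Of the identifiers 88.5% matched GENCODE 44 (GRCh38), the source of symbols, coordinates, exon length and GC content. Exonic GC content was that of the longest annotated transcript of each gene. Promoters came from RefSeq, matched by symbol. Genes were filtered by filterByExpr (minimum count 10), scaled by TMM and tested in edgeR 4.0.16 (R 4.3.3) by the two-sided quasi-likelihood F test with batch as a term, within each batch, and for the interaction, and p-values were adjusted over all tested genes by Benjamini-Hochberg. The code was tested on simulated data. Calls required an adjusted p under 0.05. A fold over 1.5 was also required in a secondary count, met by 2.98% of all genes in the pooled fit. Values per library are given for kinesins called in any HHH comparison or the interaction and for the 3 with the highest level per length in the mitotic and transport classes, and at most 4 genes are named per further list, by smallest p, with RACGAP1 and GLI2 named beyond that rule.

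Libraries of the same population and batch differed beyond sampling noise (chi-square 6.35 to 53.5 times its degrees of freedom). Same-numbered libraries deviated together in batch 2, with correlations of log2 CPM deviations of 0.239, 0.143 and 0.113 (the last was 0.0708 on log2(CPM + 1)). In batch 1 the correlation cannot decide, since with 2 libraries a group every pair is fixed at 0.113 or -0.113. General replicate 1 and HHH replicate 3 had 0.113 there, as had the libraries numbered 2. Same-numbered libraries were taken as paired in the block fit, in batch 1 for replicate 2 only. Alternatives were no batch term, the block, other scalings and filters, DESeq2 1.42.0, limma 3.58.1 (voom, and the deposited log2 values), removal of a GC trend (spline, 5 degrees of freedom) and each library left out. GC removal for the class ratio was added after the data had been seen.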

Additional observations from a re-analysis of the deposited data

Results flagged for a closer look

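The change of KIF26A in HHH relative to the general population differed between the batches by -0.94 on the log2 scale (adjusted p = 0.0106, edgeR interaction test), since HHH was higher in both libraries of batch 1 and lower in all 3 of batch 2. Its exonic GC content was the highest of the kinesins (68.6%), and with the GC trend of each library removed the difference was -0.34 (adjusted p = 0.358).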

How the results depend on the processing

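In the pooled comparison the count of 3 called kinesins became 0 without a batch term, 1 with library size as the only scaling, and 6 with the GC trend removed and the replicate block, and ran from 1 (5 of the fits, such as without HHH replicate 1 of batch 2) to 5 (without HHH replicate 3 of batch 1) when a library was left out. KIF5A was the only kinesin called in all those fits except the one without a batch term. In batch 2 alone the count of 12 became 7 with the GC trend removed and 9 with the replicate block added to it, and ran from 4 (without general replicate 3) to 8 when a library was left out. In the interaction the single call became 2 with DESeq2 (KIF20B added), 0 with the GC trend removed, also with the replicate block, and 0 to 1 when a library was left out. Batch 1 alone gave 0 throughout. The share of all genes called moved as well. In the pooled comparison it was 0.713% without a batch term, 4.52% with library size only, and 10.6% with GC removal and the block. In batch 2 alone it was 12% with the GC trend removed and 17.7% with the block added.

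KIF1A, at 0.00 in the pooled fit and never called, was at -0.01 without a batch term, with a filter of 1 CPM and with voom, at -0.03 with library size only, at -0.13 with the replicate block and at -0.14 on the deposited log2 values, and at -0.07 to 0.11 without a library. On the deposited log2 values, whose median over all genes was -0.123, KIF20A was at -0.02 and KIF5B at -0.07, both above that median, and KIF5B was at -0.01 with the GC trend removed and the replicate block. The mitotic over transport ratio of HHH relative to general was 1.19 in batch 1 and 1.12 in batch 2 from median log2 levels. Apart from the calls of KIF5C (pooled) and KIF2C (batch 2), the replicate block alone changed no kinesin call. The causes were not tested. With 2 libraries a group in batch 1, a change has to be large against its spread to pass, and kinesins under 1 CPM rest on few counts.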
